A study of Homo sapiens with 6 samples.

Results

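The HOX genes encode homeodomain transcription factors that pattern the body along its head-to-tail axis. In human cells they lie in 4 clusters, HOXA to HOXD, and the number in a gene's name gives its paralog group, from 1 at the anterior end to 13 at the posterior end. The order of the genes along a chromosome follows the order in which they are used along the body, and Polycomb and trithorax proteins keep stretches of a cluster silent or active. Adult colon epithelium keeps a regional HOX code, and many HOX genes stay expressed in colorectal cancer cells. All genes whose symbol is HOX, a cluster letter from A to D and a number were taken, which gave 39 of the 19672 genes in the table: 11 in HOXA, 10 in HOXB, 9 in HOXC and 9 in HOXD.

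RNA was sequenced from SW620, an established human colorectal cancer line of epithelial cells, made stably to carry lentiviral short hairpin RNA and kept in 1 µg/mL puromycin. One group carried a scrambled hairpin (scramble), and the other groups, named C3 and C6 in the titles, carried a hairpin against DKC1, which encodes dyskerin, the pseudouridine synthase of H/ACA ribonucleoproteins. Each group had 2 libraries, all with the same batch tag. The design text names 2 hairpins, but the sources used here do not tie them to C3 and C6 or say whether each is a clone or a pool. The titles speak of biological replicates without saying that these were separate cultures, so a p-value measures only the spread between the libraries.

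Total counts per library ran from 26077966 to 31021000, and those of the HOX genes from 17139 to 28560. A count of 3 was worth 0.0968 to 0.114 CPM (counts scaled to a common library size), depending on the library, and limits of this kind cover counting error only. DKC1 stood at 320 and 315 CPM in the scramble libraries, 144 and 149 in those of C3, and 70.3 and 67.1 in those of C6. The first C3 library carries a control genotype tag, but its title names the knockdown and its DKC1 level lay beside that of the other C3 library. Of 13 epithelial markers, CDX1 was at 0 in all libraries, and their summed level was 8590 to 9250 CPM in scramble, 7000 to 7200 in C3 and 9220 to 9320 in C6. Fibroblast markers summed to 23.1 to 24.1, 30.3 to 34.9 and 15.2 to 16.6 CPM in the same order, with COL1A2, COL3A1 and DCN at 0 among 7. Leukocyte markers summed to 18.2 to 19.1, 12.3 to 12.8 and 35 to 42.4 CPM, with 3 of 5 at 0, PTPRC and CD3E among them, and endothelial markers to 5.51 to 6.43, 3.24 to 3.36 and 5.25 to 5.73 CPM, with CDH5 at 0 among 4. The part of these shifts in the HOX results was not tested.

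Most HOX genes were detected in SW620, and the silent ones were few. HOXB1, HOXD1, HOXD3 and HOXD12 had fewer than 10 counts in all 6 libraries. HOXB1 and HOXD12 had no count in any library. HOXD1 had 8 and 0 counts in scramble, 4 and 7 in C3, then 0 and 0 in C6. HOXD3 had none in scramble or C3 and 2 and 4 in C6. HOXC4, with 3 and 0 counts in scramble, 10 and 2 in C3, then 2 and 5 in C6, reached 10 in a single library. These 5 genes did not pass the filter on low counts, so 34 of 39 HOX genes were tested: all 11 of HOXA, 9 of HOXB, 8 of HOXC and 6 of HOXD. The untested genes of HOXB and HOXD, apart from HOXD12, belong to paralog groups 1 and 3, near the anterior ends.

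Per length of transcript, HOXB9 and HOXB6 were the most abundant HOX transcripts in scramble, at 43.6 ± 1.48 and 42.1 ± 0.913 CPM per kb (SD, n = 2), with overlapping libraries. HOXA9 followed at 34 ± 0.43, then HOXC10 at 24.9 ± 2.58, HOXB3 at 20.7 ± 2.24 and HOXB7 at 19.3 ± 0.736 CPM per kb, the last 2 with overlapping libraries. HOXB8 at 13.4 ± 0.411, HOXD9 at 11.7 ± 0.979 and HOXA7 at 11.6 ± 1.28 completed the 9 members at 10 CPM per kb or more, and 9 members lay below 1. The leading genes thus belong mostly to paralog groups 6 to 10, and every cluster has at least 1 of them. In C3 the level of HOXB9 was 77 CPM per kb and that of HOXB8 30.8, against 41.9 and 11.8 in C6. HOXD9 held rank 8 of 39 in scramble and rank 14 in C6, at 6.88 CPM per kb.

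**Figure D1:**
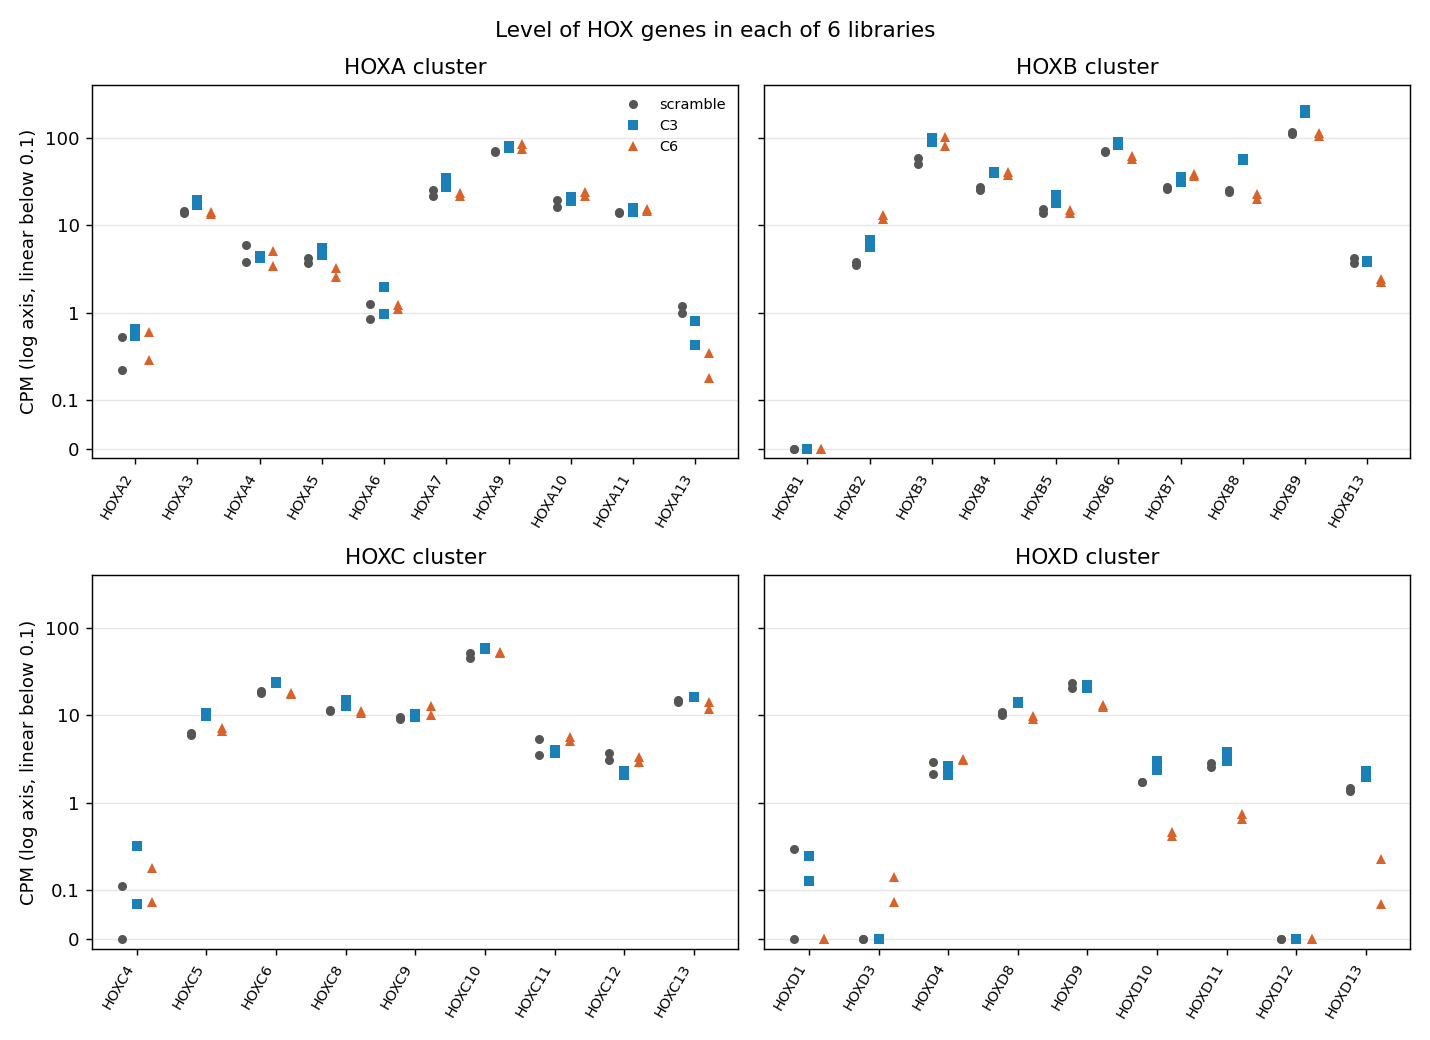
Level of HOX genes in CPM (log axis, linear below 0.1), by cluster, with 1 point per library and a colour and marker for scramble, C3 and C6. HOXB9 stands highest in HOXB, HOXB1 and HOXD12 lie at 0, and HOXD10, HOXD11 and HOXD13 have both C6 libraries below the other 4.

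HOXB had the highest ratio of C3 to scramble of the 4 clusters, and HOXD the lowest ratio of C6 to scramble. Summed over its genes, HOXB went from 337 and 335 CPM in scramble to 552 and 526 in C3, against 370 and 404 in C6, so that both knockdown groups lay above scramble. HOXD stood at 42.3 and 39.8 CPM in scramble, 45.9 and 46.3 in C3, then 26.8 and 26.9 in C6, with C6 alone below scramble. HOXA summed to 159 and 152 CPM in scramble, 184 and 176 in C3, with 177 and 162 in C6. HOXC summed to 121 and 111, 141 and 136, and 123 and 120 CPM in the same order, with the C6 libraries overlapping scramble. The ratio of C3 to scramble was 1.6 for HOXB, 1.19 for HOXC, 1.16 for HOXA and 1.12 for HOXD, and that of C6 to scramble was 1.15, 1.05, 1.09 and 0.654. HOXB held 51.8% of all HOX CPM in scramble, 59.7% in C3 and 54.9% in C6, and HOXD held 6.32%, 5.11% and 3.81%. In bulk RNA, fewer cells that express a gene and less RNA per cell cannot be told apart.

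**Figure D2:**
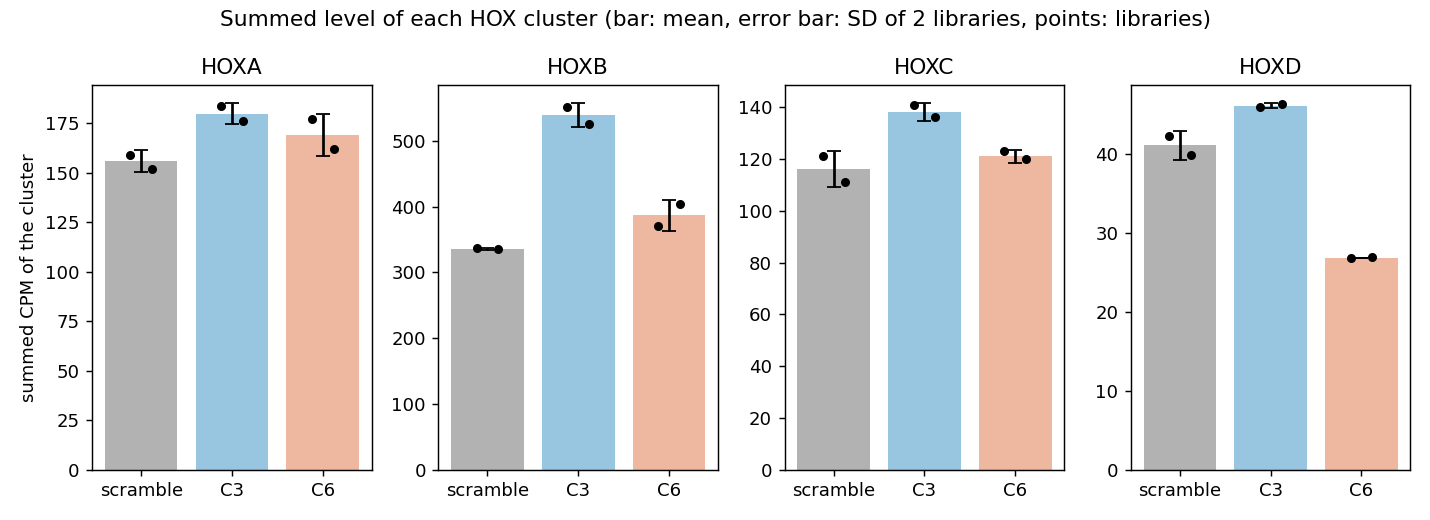
Summed CPM of the genes of each HOX cluster in scramble, C3 and C6 (bars: mean, error bars: SD of 2 libraries, points: libraries), each panel with its own axis from 0. HOXB rises to 539 ± 18.2 CPM in C3, and HOXD drops to 26.8 ± 0.056 in C6.

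Gene by gene, C3 against scramble gave 14 HOX genes higher and none lower at an adjusted p under 0.05 in edgeR's quasi-likelihood test, 41.2% of the 34 tested. Over all 13299 genes tested, 24.3% were called, 12.4% higher and 11.9% lower. The median log2 fold change of the HOX genes was 0.33, against 0 for all genes. For the absent falls, 1 HOX gene was lower at an unadjusted p under 0.05, and DESeq2 and limma-voom called none. Both C3 libraries lay above both scramble libraries for 23 HOX genes and below them for 2, where all genes gave 31.8% and 31%. By cluster the rises were 2 of 11 in HOXA, 8 of 9 in HOXB, 3 of 8 in HOXC and 1 of 6 in HOXD, with medians of 0.18, 0.59, 0.21 and 0.36. Fewer of the 14 genes were called when any scramble or C3 library was left out. Each of those fits leaves 1 library in a group and called fewer of all genes too.

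C6 against scramble, which shares the scramble libraries with the C3 comparison, gave 6 HOX genes higher and 7 lower, or 38.2% of 34. Over all genes 46.7% were called, 23.8% higher and 22.8% lower, so the share of HOX genes called was not above the background. The HOX median was −0.03 and that of all genes −0.01. Both C6 libraries lay above both scramble libraries for 11 HOX genes and below them for 13, where all genes gave 36.1% and 36.8%. HOXA had 2 genes higher and 1 lower, HOXB 4 and 2, HOXC none, and HOXD none higher and 4 lower, with medians of 0.08, −0.01, 0.03 and −1.36. For the absent rises of HOXD, 0 genes were higher at an unadjusted p under 0.05 in edgeR, and DESeq2 and limma-voom called 0. A call with at least a 2-fold fall was made for HOXA13, HOXD10, HOXD11 and HOXD13, and for 5.56% of all genes tested. A call with at least a 2-fold rise was made for HOXB2 alone, and for 3.16% of all genes.

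**Figure D3:**
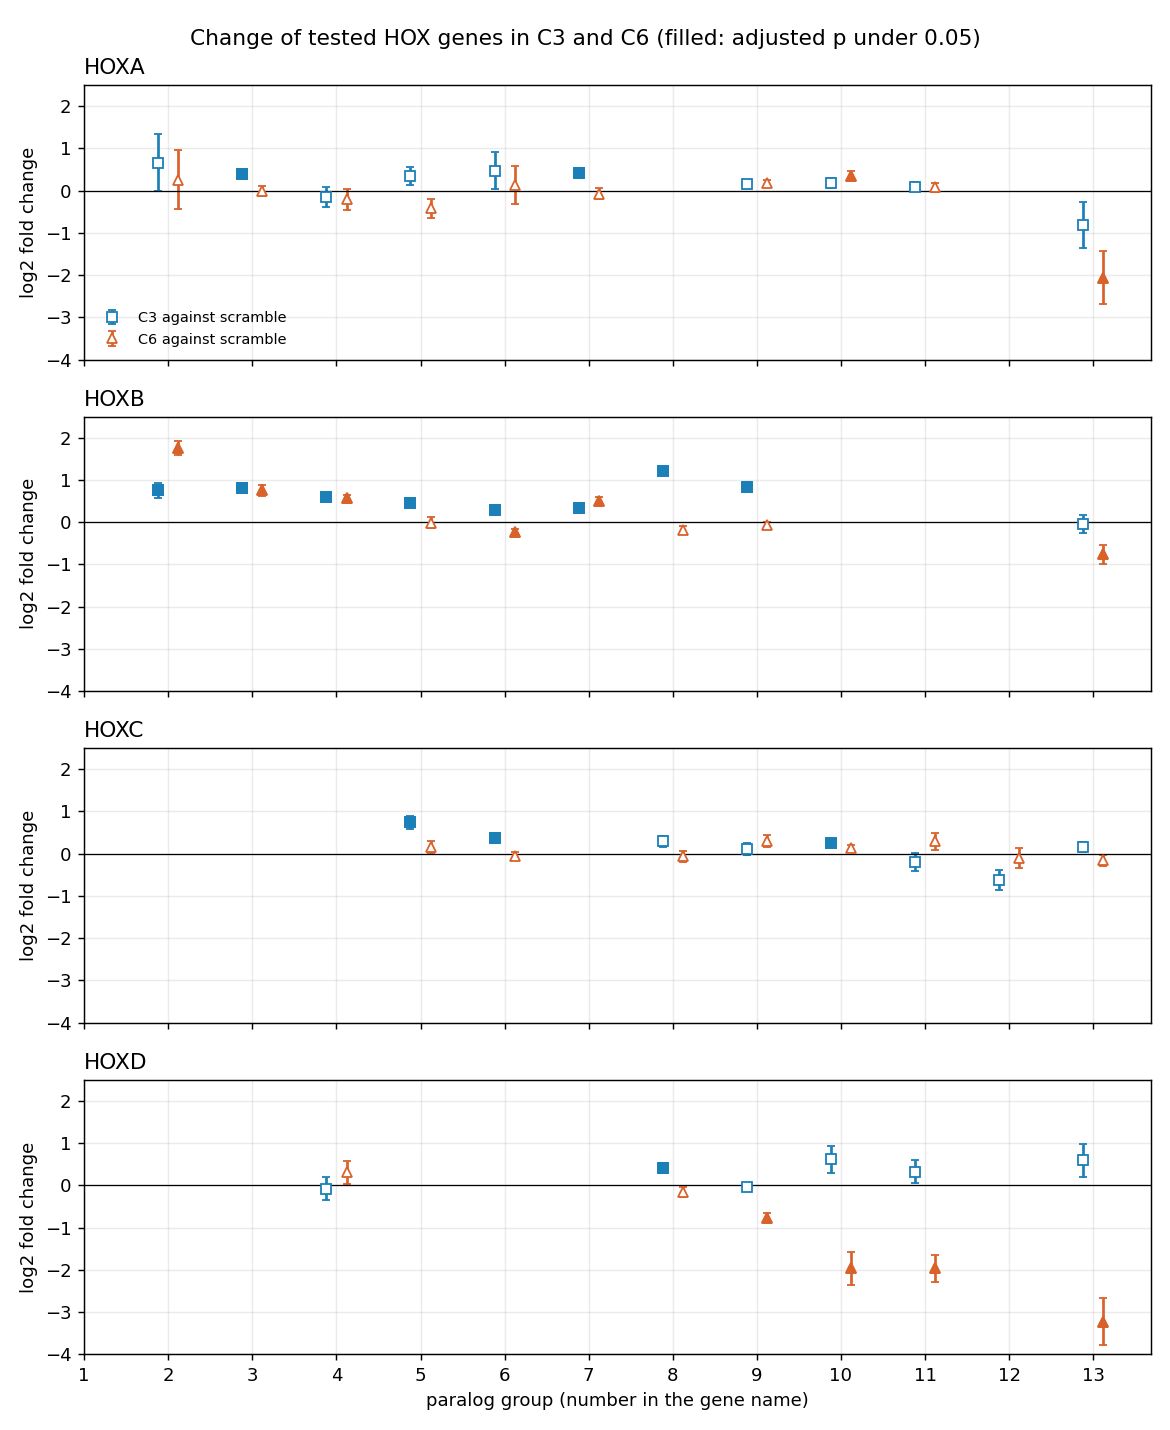
Log2 fold change of tested HOX genes against scramble (error bars: SE of the fit) by paralog group, 1 panel per cluster, with C3 and C6 as separate markers that are filled where the adjusted p was under 0.05. HOXB8 reaches 1.21 in C3, HOXB2 reaches 1.76 in C6, and HOXD13 falls to −3.23 in C6.

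HOXB, on chromosome 17 (GRCh38, 48528526 to 48728750), held the largest HOX rises of either group. HOXB8, a central-group factor, was at 24.9 and 23.8 CPM in scramble, 55.0 and 57.3 in C3, against 20.1 and 22.9 in C6. Its C3 libraries lay far above the rest, and its C6 libraries just below scramble. The log2 fold change of HOXB8 was 1.21 ± 0.09 in C3 (SE, adjusted p = 1.42e-07), a 2.31-fold rise, and −0.18 ± 0.09 in C6 (adjusted p = 0.133). HOXB9, its neighbour (48621156 to 48626358) and the first of the posterior groups in the cluster, had 115 and 110 CPM in scramble, 205 and 192 in C3, then 105 and 112 in C6. The C3 libraries again stood apart, while C6 overlapped scramble. HOXB9 rose 1.77-fold in C3 (0.82 ± 0.06, adjusted p = 2.7e-07) and gave −0.06 in C6 (adjusted p = 0.514).

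At the anterior end, HOXB2, a hindbrain-patterning factor of paralog group 2, had 3.49 and 3.83 CPM in scramble, 5.62 and 6.76 in C3, with 13 and 11.8 in C6. The 3 groups did not overlap, and C6 was highest. HOXB2 rose by 0.75 ± 0.17 on the log2 scale in C3 (adjusted p = 0.00431) and by 1.76 ± 0.16 in C6 (adjusted p = 5.6e-07), or 3.39-fold. The C3 rise of HOXB2 lost its call without C3 replicate 2 (0.62, adjusted p = 0.055). HOXB3, of group 3, had 50.5 and 58.9 CPM in scramble, 100 and 90 in C3, against 81.1 and 102 in C6. HOXB4, a factor known from blood stem cells, had 25.5 and 27.2, 40.2 and 38.9, and 37.6 and 40.3 CPM in the same order. For both genes all 4 knockdown libraries lay above scramble, and the knockdown groups overlapped each other. HOXB3 rose by 0.80 ± 0.12 in C3 (adjusted p = 0.000796) and, in C6, by 0.75 ± 0.12 (adjusted p = 0.00053), and HOXB4 by 0.59 ± 0.08 (adjusted p = 0.000119) and 0.56 ± 0.09 (adjusted p = 7.01e-05). The spans of HOXB3 and HOXB4 overlap on the same strand, and the sources used here do not say how reads of overlapping genes were assigned.

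The central HOXB genes rose in C3 and split in C6. HOXB7 had 27.2 and 25.8 CPM in scramble, 35.7 and 31.4 in C3, then 38.7 and 36.8 in C6, so that all knockdown libraries were above scramble (0.34 ± 0.09 and 0.51 ± 0.09; adjusted p = 0.0126 and 0.00032). HOXB6 had 71.0 and 68.9 CPM in scramble, 88.2 and 83.3 in C3, with 57.7 and 61.5 in C6. Its C3 libraries lay above scramble and its C6 libraries below, and both differences were called (0.29 ± 0.07, adjusted p = 0.0059, and −0.23 ± 0.07, adjusted p = 0.0147). HOXB5 had 15.3 and 13.7, 17.7 and 21.9, and 14.8 and 13.8 CPM in scramble, C3 and C6. It rose in C3 by 0.45 ± 0.12 (adjusted p = 0.0138), with C6 overlapping scramble (−0.01, adjusted p = 0.944). The most posterior gene, HOXB13, a prostate and hindgut factor, had 4.2 and 3.72 CPM in scramble, 3.91 and 3.81 in C3, against 2.24 and 2.44 in C6. HOXB13 fell in C6 (−0.76 ± 0.23, adjusted p = 0.0135), and its C3 libraries lay within the range of scramble (−0.04, adjusted p = 0.924). Some of these calls were lost without 1 library. HOXB5 in C3 was not called without scramble replicate 2 (adjusted p = 0.134) or C3 replicate 2 (0.29, adjusted p = 0.2), and HOXB7 in C3 without scramble replicate 2 (adjusted p = 0.101) or C3 replicate 1 (adjusted p = 0.176). HOXB6 lost that in C3 without scramble replicate 2 (adjusted p = 0.0587) or C3 replicate 1 (adjusted p = 0.0792) and that in C6 without scramble replicate 1 (adjusted p = 0.0829) or C6 replicate 1 (adjusted p = 0.101). HOXB13 was not called in C6 without scramble replicate 1 (adjusted p = 0.0756) or C6 replicate 1 (adjusted p = 0.0588).

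HOXD, on chromosome 2 (GRCh38, 176087487 to 176190907), fell in C6 at its posterior end. The genes there, best known from limb, genital and hindgut development, are listed from HOXD13 to HOXD1 in order along the plus strand. The 250 bases before a RefSeq start (GRCh38.p14, plus strand) are shown for 5 of the tested members, in their order along the chromosome. They run from HOXD13, the lowest in C6, to HOXD4, which had a positive value. CpG dinucleotides, which Polycomb-bound HOX promoters are rich in, are in capitals. HOXD9 is not shown. The HOXD13 window lies inside the listed span of that gene, 176087487 to 176095944.
HOXD13, chr2:176092471-176092720: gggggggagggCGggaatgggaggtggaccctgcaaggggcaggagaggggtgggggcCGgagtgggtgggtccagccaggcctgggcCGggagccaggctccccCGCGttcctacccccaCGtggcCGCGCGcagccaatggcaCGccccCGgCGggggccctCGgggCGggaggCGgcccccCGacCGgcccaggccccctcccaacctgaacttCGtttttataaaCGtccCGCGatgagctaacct
HOXD11, chr2:176107030-176107279: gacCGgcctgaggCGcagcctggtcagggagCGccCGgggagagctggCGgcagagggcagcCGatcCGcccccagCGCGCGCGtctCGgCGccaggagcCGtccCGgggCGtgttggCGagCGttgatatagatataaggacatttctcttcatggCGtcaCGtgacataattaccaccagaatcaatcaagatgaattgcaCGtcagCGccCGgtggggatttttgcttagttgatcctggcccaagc
HOXD10, chr2:176116528-176116777: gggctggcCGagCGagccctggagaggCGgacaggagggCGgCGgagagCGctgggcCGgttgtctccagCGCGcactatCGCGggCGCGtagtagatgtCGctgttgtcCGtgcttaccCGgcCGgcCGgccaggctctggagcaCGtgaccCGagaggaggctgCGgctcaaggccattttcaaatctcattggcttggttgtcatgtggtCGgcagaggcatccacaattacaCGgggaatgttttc
HOXD8, chr2:176129455-176129704: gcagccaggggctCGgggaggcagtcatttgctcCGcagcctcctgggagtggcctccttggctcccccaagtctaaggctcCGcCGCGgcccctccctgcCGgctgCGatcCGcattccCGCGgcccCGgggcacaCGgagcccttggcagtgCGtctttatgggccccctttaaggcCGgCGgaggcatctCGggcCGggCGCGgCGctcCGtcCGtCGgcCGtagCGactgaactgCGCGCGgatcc
HOXD4, chr2:176151300-176151549: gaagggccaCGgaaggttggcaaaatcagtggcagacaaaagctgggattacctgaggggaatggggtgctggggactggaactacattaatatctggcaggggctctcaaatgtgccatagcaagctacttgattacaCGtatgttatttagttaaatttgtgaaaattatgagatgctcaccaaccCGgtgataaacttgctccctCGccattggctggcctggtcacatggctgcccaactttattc

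These HOXD windows hold 21 CpGs for HOXD13 (GC 74.0%), 23 for HOXD11 (61.6%), 23 for HOXD10 (64.0%), 28 for HOXD8 (72.4%) and 4 for HOXD4 (47.6%). Over 27 windows of 20 HOX genes the median was 19 CpGs, against 11 over all 35116 windows of 27305 genes, at a median GC of 58.8% and 58.0%. Several of the HOX windows belong to HOXA3, and HOXC4 and HOXC5 share the same window. The only HOXB gene with a window is HOXB1, which had no count, and HOXC6 to HOXC13 have none. HOXD8, with the most CpGs of the 5, was not called in C6, and a relation of CpG number to the changes was not tested. The motifs were searched on both strands. The letters of a HOX-PBX site, TGATTNAT, occurred in the windows of HOXD11 and HOXA2 and in 2.48% of all windows, and those of a CDX site, TTTATG, in windows of HOXD8, HOXA3 and HOXA9 and in 9.64%. The letters TATAAA, of a TATA box, occurred in windows of HOXD13, HOXA3, HOXA9 and HOXA10 and in 10.7%, and AGGTCA, a retinoic acid receptor half-site, in none of the 27 HOX windows and in 12.1% of all. A match is a description of letters and not of binding.

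HOXD13, which shapes digits and the hindgut end, had 1.49 and 1.38 CPM in scramble, 2.0 and 2.31 in C3, then 0.228 and 0.0719 in C6, from 40 and 37, 62 and 65, and 6 and 2 counts. C3 lay above scramble and C6 far below it, with no overlap. HOXD13 in C6 was at 10.3% of scramble (95% exact interval 4.3 to 21.4, counting error only), a log2 fold change of −3.23 ± 0.55 (adjusted p = 0.000193), and gave 0.59 ± 0.39 in C3 (adjusted p = 0.3). HOXD11 had 2.6 and 2.87 CPM in scramble, 3.84 and 2.99 in C3, with 0.646 and 0.755 in C6. HOXD10 had 1.75 and 1.75, 3.03 and 2.35, and 0.418 and 0.467 CPM in the same order. Both had all C6 libraries below all others and both C3 libraries above scramble. In C6 the level was 25.7% of scramble for HOXD11 (interval 17.5 to 36.9; −1.96 ± 0.32, adjusted p = 0.000127) and 25.4% for HOXD10 (15.5 to 40; −1.97 ± 0.39, adjusted p = 0.000797). The C3 values were not called, at 0.32 ± 0.27 for HOXD11 (adjusted p = 0.422) and 0.62 ± 0.32 for HOXD10 (adjusted p = 0.185). HOXD9, the most abundant gene of the cluster, had 23.3 and 20.7 CPM in scramble, 20.6 and 22.2 in C3, against 12.4 and 13.3 in C6. Its C3 libraries overlapped scramble and its C6 libraries lay below (−0.77 ± 0.11, adjusted p = 3.69e-05; C3 −0.04, adjusted p = 0.827).

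Towards the anterior side of HOXD the values in C6 lay nearer to 0. HOXD8 had 10.8 and 10.2 CPM in scramble, 13.7 and 14.2 in C3, then 9.87 and 9.09 in C6, with C3 above scramble and C6 slightly below. It rose in C3 by 0.40 ± 0.12 (adjusted p = 0.0224) and gave −0.15 in C6 (adjusted p = 0.344). The C3 call of HOXD8 was lost without either scramble library (adjusted p = 0.0614 and 0.128) or either C3 library (adjusted p = 0.0701 and 0.126), and in DESeq2 (adjusted p = 0.102). HOXD4, in paralog group 4, had 2.12 and 2.9, 2.65 and 2.1, and 3.15 and 3.06 CPM, and gave 0.31 ± 0.27 in C6 (adjusted p = 0.368). From HOXD13 through HOXD11, HOXD10, HOXD9 and HOXD8 to HOXD4 the log2 fold changes in C6 were thus −3.23, −1.96, −1.97, −0.77, −0.15 and 0.31, an order along the chromosome given as a description with no test. The C6 calls of HOXD9, HOXD10, HOXD11 and HOXD13 held without each library in turn.

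HOXA, on chromosome 7 (GRCh38, 27092993 to 27200091), gave 2 rises in C3, and 2 rises and 1 fall in C6. HOXA13, the most posterior gene and one needed in hindgut and limb, had 1.00 and 1.19 CPM in scramble, 0.807 and 0.427 in C3, with 0.342 and 0.18 in C6, from 27 and 32, 25 and 12, and 9 and 5 counts. The C3 libraries lay below scramble and the C6 libraries below both. HOXA13 in C6 was at 23.6% of scramble (95% exact interval 12.2 to 42.7), with a log2 fold change of −2.06 ± 0.62 (adjusted p = 0.0125), and gave −0.82 ± 0.54 in C3 (adjusted p = 0.306). This call was lost without scramble replicate 1 (adjusted p = 0.0531), scramble replicate 2 (adjusted p = 0.0916) or C6 replicate 2 (−1.67, adjusted p = 0.102).

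HOXA10, of group 10, had 19.2 and 16.2 CPM in scramble, 21.0 and 18.9 in C3, then 23.6 and 21.6 in C6, with C6 above scramble and C3 overlapping it. HOXA10 rose in C6 by 0.35 ± 0.11 (adjusted p = 0.0174), a call lost without scramble replicate 2 (0.24, adjusted p = 0.172) or C6 replicate 1 (0.29, adjusted p = 0.122). In C3, HOXA3 and HOXA7 were the HOXA genes called. HOXA3, of group 3, had 13.6 and 14.4 CPM in scramble, 19.3 and 17.0 in C3, with 13.4 and 14.3 in C6. HOXA7, of group 7, had 25.2 and 21.5, 34.5 and 27.3, and 23.2 and 21.3 CPM in the same order. Both had their C3 libraries above scramble and their C6 libraries overlapping it. The rises in C3 were 0.38 ± 0.11 for HOXA3 (adjusted p = 0.0218) and 0.41 ± 0.12 for HOXA7 (adjusted p = 0.0215). HOXA3 was not called without scramble replicate 1 (adjusted p = 0.122), scramble replicate 2 (adjusted p = 0.0672) or C3 replicate 1 (adjusted p = 0.204) and in DESeq2 (adjusted p = 0.0841). HOXA7 lost it without scramble replicate 2 (adjusted p = 0.203) or C3 replicate 1 (0.23, adjusted p = 0.288). HOXA9, a leukaemia-linked factor and the most abundant of the cluster, had 70.6 and 69.3 CPM in scramble, 76.5 and 80.0 in C3, against 84.3 and 73.6 in C6. All 4 knockdown libraries of HOXA9 lay above scramble, but the changes of 0.16 ± 0.08 and 0.17 ± 0.08 were not called (adjusted p = 0.139 and 0.0719). HOXA5 had 3.68 and 4.17 CPM in scramble, 4.58 and 5.41 in C3, then 2.58 and 3.27 in C6, on either side of scramble, with no call against it (0.35 and −0.42; adjusted p = 0.266 and 0.136). HOXA2, HOXA4, HOXA6 and HOXA11 were called in no comparison; HOXA11 stood at 13.9 ± 0.0824 CPM in scramble and the other 3 between 0.372 and 4.83 CPM. The span of HOXA3 overlaps those of HOXA4, HOXA5 and HOXA6 on the same strand.

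HOXC, on chromosome 12 (GRCh38, 53938831 to 54056030), rose at 3 genes in C3 and had no call in C6 against scramble, where 1 of 8 genes was higher at an unadjusted p under 0.05 and DESeq2 and limma-voom also called none. HOXC5 had 5.94 and 6.37 CPM in scramble, 10.6 and 9.96 in C3, then 6.57 and 7.15 in C6. The C3 libraries stood well above the other groups. It rose in C3 by 0.74 ± 0.15 (adjusted p = 0.00155), and gave 0.16 in C6 (adjusted p = 0.418). HOXC6, a factor often studied in tumours, had 18.9 and 18.1 CPM in scramble, 23.4 and 24.2 in C3, against 18.0 and 17.5 in C6, with C3 above and C6 just below scramble (0.36 ± 0.10, adjusted p = 0.013, and −0.06, adjusted p = 0.628). HOXC10, the most abundant of the cluster, had 51.7 and 44.7, 58.5 and 57.0, and 51.5 and 53.7 CPM, with C3 above scramble and C6 within or near its range (0.26 ± 0.08, adjusted p = 0.0291, and 0.13, adjusted p = 0.224). HOXC5, HOXC6 and HOXC4 share a listed start at 54016888, so their reads may be split by the counting. HOXC6 in C3 was not called without scramble replicate 2 (adjusted p = 0.0852), C3 replicate 1 (adjusted p = 0.0502) or C3 replicate 2 (adjusted p = 0.0895). HOXC10 lost it without scramble replicate 2 (0.16, adjusted p = 0.264), C3 replicate 1 (adjusted p = 0.148) or C3 replicate 2 (adjusted p = 0.092), with upper-quartile scaling (adjusted p = 0.0607) and in DESeq2 (adjusted p = 0.0601). HOXC8 had 11.3 and 11.4 CPM in scramble, 15.0 and 12.7 in C3, then 11.2 and 10.6 in C6. HOXC13, a hair and nail factor, had 14.9 and 14.3, 16.3 and 16.3, and 14.2 and 11.9 CPM in the same order. Both had C3 above and C6 below scramble, and neither was called against it (adjusted p = 0.103 and 0.741 for HOXC8, 0.346 and 0.287 for HOXC13). HOXC9, HOXC11 and HOXC12 were called in no comparison, at 9.28 ± 0.357, 4.44 ± 1.23 and 3.4 ± 0.389 CPM in scramble.

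C6 was set against C3 directly, since a call in one group and not in the other does not show a difference between them. Here 17 HOX genes were lower in C6 and 2 were higher, 55.9% of 34, where 49.2% of all genes tested were called, 25.1% higher and 24.1% lower. The HOX median was −0.37 and that of all genes 0. Both C6 libraries lay below both C3 libraries for 19 HOX genes and above them for 7, where all genes gave 36.6% and 37.5%. The calls were 3 lower and 1 higher in HOXA, 5 and 1 in HOXB, 4 and 0 in HOXC, and 5 and 0 in HOXD. DESeq2 called 15 HOX genes, 14 lower and 1 higher, and did not call HOXB13, HOXC8 or HOXC13. At an unadjusted p under 0.05 in edgeR, 1 HOXC gene and 0 HOXD genes were higher, and DESeq2 and limma-voom called 0 in either cluster. The largest differences were in posterior HOXD: −3.82 ± 0.53 for HOXD13 (adjusted p = 2.44e-05), −2.59 ± 0.38 for HOXD10 (adjusted p = 4.59e-05) and −2.28 ± 0.31 for HOXD11 (adjusted p = 2.14e-05). HOXB8 differed by −1.38 ± 0.09 (adjusted p = 8.7e-09) and HOXB9 by −0.88 ± 0.06 (adjusted p = 3.48e-08). HOXB2, of the anterior groups, was higher in C6 (1.01 ± 0.15, adjusted p = 6.57e-05). For HOXB3, HOXB4 and HOXB7 the differences were −0.05, −0.02 and 0.17 and were not called (adjusted p = 0.741, 0.832 and 0.133). HOXC8 (−0.22 without C3 replicate 1, adjusted p = 0.293), HOXC13 (−0.20 without C6 replicate 2, adjusted p = 0.245) and HOXB13 (without C6 replicate 1 or either C3 library, adjusted p up to 0.0713) each lost the call without 3 of the C3 and C6 libraries. HOXA3 (without replicate 1 of C3 or of C6, adjusted p up to 0.115), HOXA5 (without C3 replicate 2 or C6 replicate 1, adjusted p up to 0.0746), HOXB5 (without replicate 2 of C3 or of C6; −0.30 without the former, adjusted p = 0.106) and HOXA7 (−0.29 without C3 replicate 1, adjusted p = 0.088) lost it without 1 or 2. After removal of the shift of neighbouring genes HOXD9 and HOXD8 were no longer called (−0.15 and 0.02 with 50 neighbours; adjusted p = 0.264 and 0.902).

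The mean of C3 and C6 against scramble gave 9 HOX genes higher and 4 lower, 38.2% of 34, where 32.9% of all genes tested were called, 16.6% higher and 16.3% lower. The HOX median was 0.16 against 0 for all genes, and all 4 knockdown libraries lay above both scramble libraries for 7 HOX genes and below for 1, where all genes gave 15% and 15.2%. The higher genes were HOXB2 (1.26), HOXB3 (0.77), HOXB4 (0.58), HOXB8 (0.51), HOXB7 (0.43), HOXB9 (0.38), HOXC5 (0.45), HOXA10 (0.27) and HOXC10 (0.19). The lower ones were HOXA13 (−1.44), HOXD13 (−1.32), HOXD11 (−0.82) and HOXD9 (−0.41). For HOXB2, HOXB8, HOXB9, HOXC5, HOXD9, HOXD11 and HOXD13 this mean joins values of C3 and C6 that differed. Without scramble replicate 1 or scramble replicate 2 the count was lower, in fits that called fewer of all genes too. Several calls were lost without 1 of the scramble, C3 or C6 libraries: HOXA10 (up to an adjusted p of 0.42, at 0.15 without scramble replicate 2), HOXC10 (up to 0.471), HOXA13 (up to 0.226), HOXD11 (up to 0.132), HOXC5 (up to 0.108), HOXD13 (up to 0.104) and HOXD9 (without scramble replicate 1, 0.067). The mean calls of HOXA10 and HOXC10 (adjusted p = 0.0495 and 0.0491) lay close to the threshold and were lost in 12 and 14 of 17 alternatives, among them RLE scaling (adjusted p = 0.0527 and 0.0536), upper-quartile scaling (0.105 and 0.138), DESeq2 (0.129 and 0.104) and limma-voom (0.0586 and 0.054). DESeq2 also did not call HOXA13, HOXC5 and HOXD11, and removal of the neighbouring shift ended the calls of HOXD9 and HOXD11. HOXC10 moved between 0.3 without scramble replicate 1 and 0.09 without scramble replicate 2.

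Sorted by position along the body axis, a grouping chosen after seeing the data, the genes were read in 3 classes. Of the anterior groups 1 to 3, 5 of 8 genes were tested, and 3 rose in C3 and 3 in C6, with medians of 0.66 and 0.58. Of the central groups 4 to 8, 14 of 15 were tested, and 9 rose in C3, while in C6 2 rose and 1 fell, with medians of 0.38 and −0.06. Of the posterior groups 9 to 13, 15 of 16 were tested, and 2 rose in C3, while in C6 1 rose and 6 fell, with medians of 0.16 and −0.11. In C6 against C3 the medians were −0.05, −0.44 and −0.32 from anterior to posterior. Over all genes tested, 12.4% rose and 11.9% fell in C3, and 23.8% and 22.8% in C6, so the 3 central genes called in C6 are a smaller share of 14 than that of all genes. The 6 posterior genes that fell in C6 were HOXA13, HOXB13, HOXD9, HOXD10, HOXD11 and HOXD13, while HOXA10 was the posterior gene that rose.

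The other tested genes within 2 Mb of each cluster were read against all genes, of which 24.3% were called in C3 and 46.7% in C6. Around HOXD, 16 were tested, of which 11 fell and 3 rose in C6 (median −0.30), and 6 rose in C3 (median 0.12). The nearest on either side, LNPK at 84.7 kb, which encodes an endoplasmic reticulum protein, and MTX2 at 78.5 kb, which encodes a mitochondrial import protein, gave −0.54 (adjusted p = 0.000225) and −0.30 (adjusted p = 0.00336) in C6. Around HOXA, 12 genes were tested, of which 8 rose and 2 fell in C6 (median 0.52), among them SKAP2 at 228 kb (0.42, adjusted p = 0.000244) and HIBADH at 325 kb (0.65, adjusted p = 2.67e-05). Around HOXB, 5 of 54 rose and 5 fell in C3, and 18 rose and 12 fell in C6; around HOXC, 3 of 63 rose and 11 fell in C3, and 22 rose and 10 fell in C6, in all below the share of all genes in C3 and somewhat above it in C6. The medians around HOXB and HOXC were 0.06 and 0.01 in C6, and −0.02 and −0.07 in C3. SKAP1, 83.5 kb from HOXB, gave 0.24 in C3 (adjusted p = 0.0147) and 0.55 in C6, and SMUG1, 102 kb from HOXC, −0.11 and 0.33. Inside the HOXB span, PRAC2, between HOXB9 and HOXB13, was at 2.58, 2.65 and 0.779 CPM in scramble, C3 and C6, and fell in C6 (−1.73, adjusted p = 0.000552), as its neighbour HOXB13 did.

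The HOX values were also computed after removing the local shift, taken as the running median of the 51 tested genes around each gene, or of 50 without the HOX genes, an alternative chosen after seeing the data. With 50 neighbours this median in C6 was −0.46 at HOXD and 0.5 at HOXA, and −0.04 at HOXB2 to HOXB9 and 0.01 at HOXC. HOXD9 kept its C6 call (−0.31, adjusted p = 0.0341), as did HOXD10 (−1.51, adjusted p = 0.00671), HOXD11 (−1.49, adjusted p = 0.00156) and HOXD13 (−2.78, adjusted p = 0.000968), and HOXA13 (−2.55, adjusted p = 0.00377). HOXA10 was no longer called and went to −0.14 (adjusted p = 0.345). HOXA9 went from 0.17 to −0.32 (adjusted p = 0.00331) and HOXA11 from 0.08 to −0.42 (adjusted p = 0.0079), while HOXD4 went to 0.77 (adjusted p = 0.0305). The calls in C6 were then 5 higher and 13 lower among the HOX genes, of which 11 were calls without the removal; over all genes 41% were then called, 21.5% higher and 19.5% lower. In C3 with 50 neighbours, HOXD8 lost its call (0.29, adjusted p = 0.0985) and 13 HOX genes were called. With 51 neighbours, HOXA3 and HOXA7 lost their C3 calls as well, and 11 HOX genes were called.

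**Figure D4:**
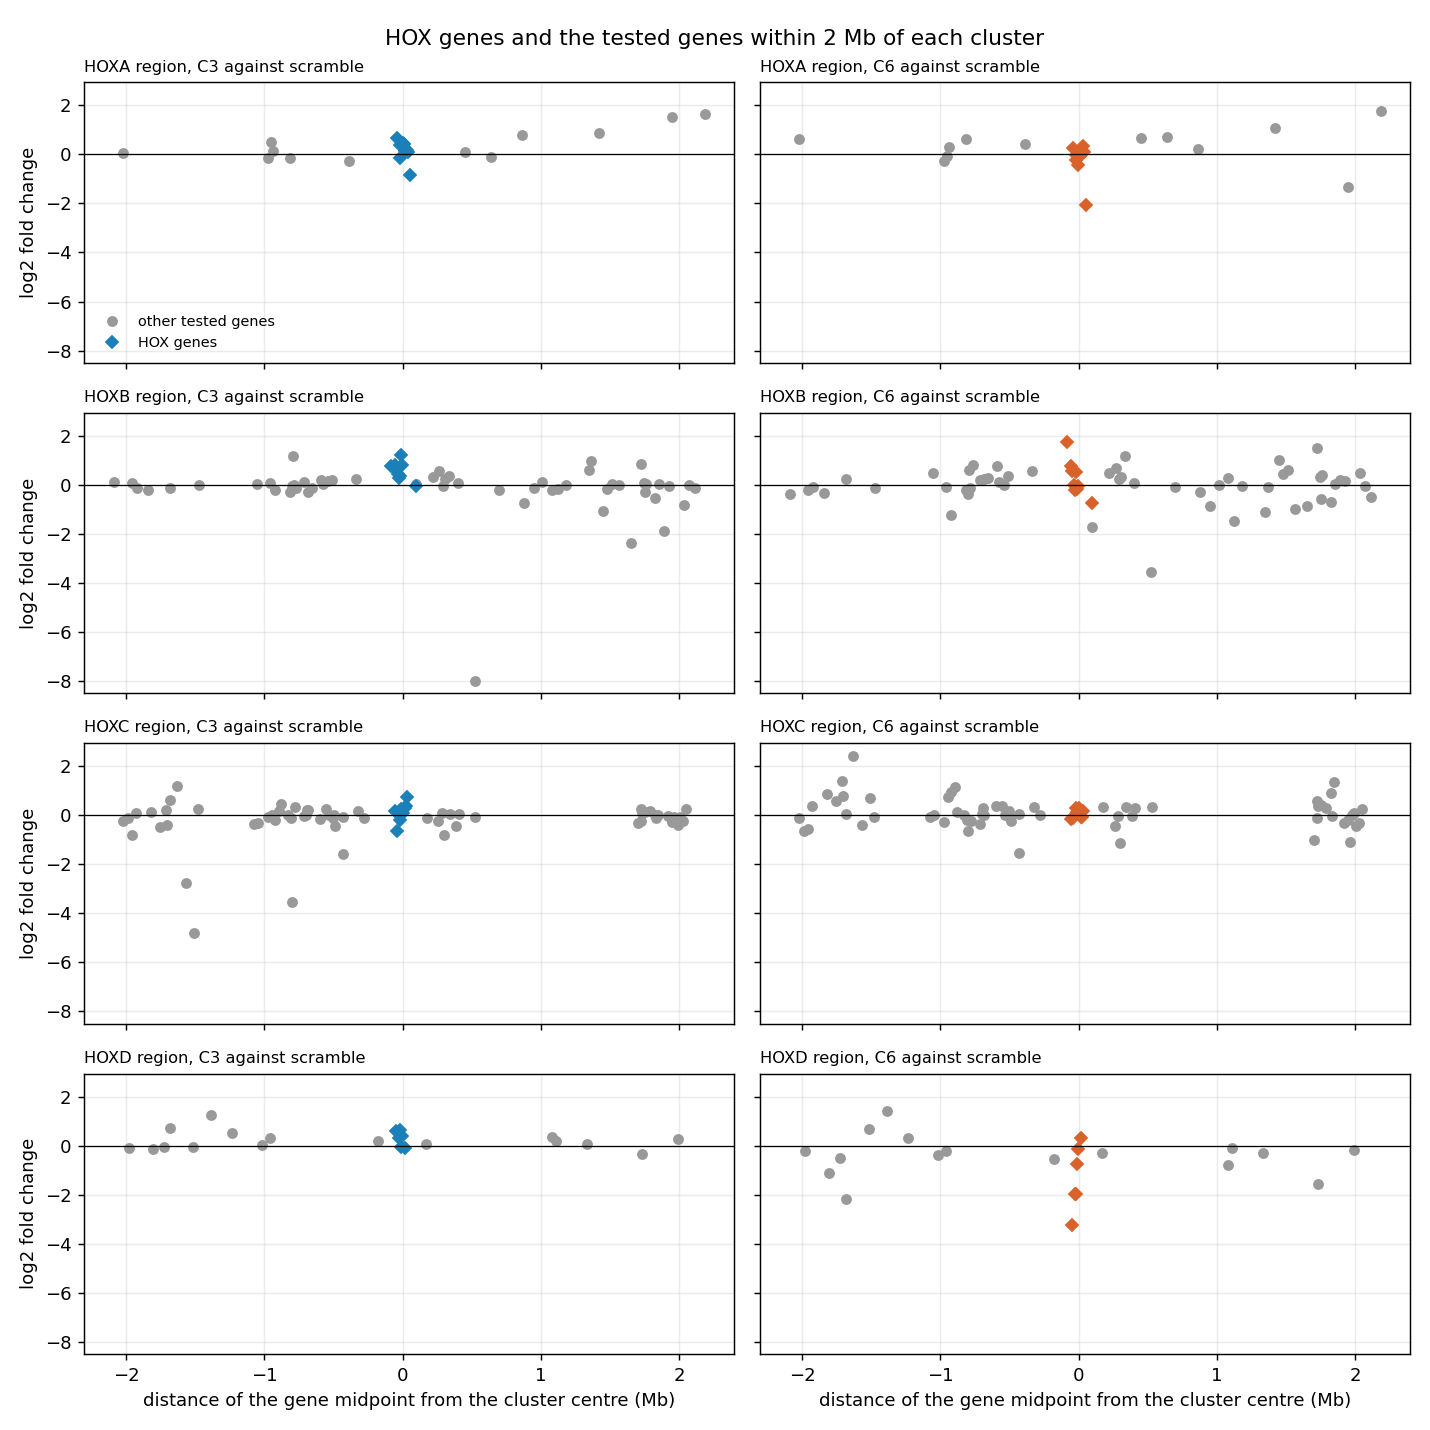
Log2 fold change against scramble of HOX genes (diamonds) and the other tested genes within 2 Mb (grey circles), by distance of the gene midpoint from the cluster centre in Mb, with C3 on the left and C6 on the right. In C6 the grey points lie mostly above 0 around HOXA (median 0.52) and below 0 around HOXD (median −0.30), with posterior HOXD genes lower still.

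Genes that act with or upstream of HOX genes were read from lists of such regulators, again against 24.3% of all genes called in C3 and 46.7% in C6. PBX, MEIS and PKNOX proteins bind DNA together with HOX proteins. Of 9, 7 were tested; 1 fell in C3, and 2 rose and 1 fell in C6, a share close to that of all genes. MEIS3 fell in C3 (−0.58, adjusted p = 0.00601) and rose in C6 (0.43, adjusted p = 0.0145), MEIS1 fell in C6 (−0.83, adjusted p = 0.024), PKNOX1 rose there (0.20, adjusted p = 0.0448), and PBX4 gave −0.48 and −0.56 (adjusted p = 0.476 and 0.326). DESeq2 called none of the 3 in C6 (adjusted p = 0.066 for MEIS3, 0.0594 for MEIS1 and 0.106 for PKNOX1), and limma-voom called all 3. CDX factors activate central HOX genes in the gut and tail bud. CDX2 was the only one tested, at 2.6 ± 0.0568 CPM in scramble, 2.24 ± 0.253 in C3 and 4.17 ± 1.02 in C6 (SD, n = 2), and rose in C6 by edgeR (0.68, adjusted p = 0.0383) but not by DESeq2 (adjusted p = 0.112) or limma-voom (adjusted p = 0.0513); CDX1 and CDX4 had no count. Retinoic acid activates anterior HOX genes. Of 17 receptors and enzymes of retinoic acid, 13 were tested; 2 fell in C3, and 3 rose and 5 fell in C6. RDH10, which makes retinal, fell from 122 to 69 and 49 CPM (−0.82, adjusted p = 6.15e-07, and −1.31, adjusted p = 1.96e-09). The receptor RARB (−1.69, adjusted p = 0.00293), the degrading enzyme CYP26B1 (−1.71, adjusted p = 0.023) and the binding protein CRABP2 (−0.59, adjusted p = 0.000674) fell in C6; DESeq2 did not call CYP26B1 (adjusted p = 0.0535). ALDH1A1, which makes retinoic acid, fell in C3 (−1.24, adjusted p = 6.45e-05) and rose in C6 (1.67, adjusted p = 1.87e-07), and DHRS3, which reduces retinal, rose in C6 (0.82, adjusted p = 0.000731); both were chosen after their values were seen.

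MLL and trithorax proteins keep HOX genes active. All 20 listed were tested; 3 rose in C3, and 3 rose and 3 fell in C6, with medians of 0.06 and −0.03, shares below those of all genes. MLLT3, a reader of histone acylation in the super elongation complex, was at 12.5, 10.4 and 2.48 CPM and fell in C6 (−2.34, adjusted p = 4.87e-08; C3 −0.26, adjusted p = 0.215). PAXIP1 rose in both (0.50 and 0.43; adjusted p = 0.000558 and 0.000764), KDM6B in C3 (0.28, adjusted p = 0.0147; C6 0.19, adjusted p = 0.0544) and KMT2C in C6 (0.80, adjusted p = 0.0491). Polycomb complexes keep HOX genes silent. Of 12 members of complex 2, 1 rose and 2 fell in C3, and 3 rose and 4 fell in C6; of 21 members of complex 1, 4 rose in C3, and 6 rose and 4 fell in C6, shares near those of all genes except for complex 2 in C6, which lay above. EZH2, the methyltransferase, went from 148 to 215 and 223 CPM (0.54, adjusted p = 6.76e-06, and 0.59, adjusted p = 8.63e-07), EZH1 rose in C6 (0.75, adjusted p = 4.46e-05), RBBP4 fell in C3 (−0.18, adjusted p = 0.0441; limma-voom 0.0509) and SUZ12 in C6 (−0.26, adjusted p = 0.00558). In complex 1, PHC2 rose in C6 (0.72, adjusted p = 8.27e-08) and RYBP in both (0.33 and 0.44; adjusted p = 0.00828 and 0.000528), and PCGF3 fell in C6 (−0.86, adjusted p = 1.18e-06). Of 12 cohesin and CTCF genes, which fold the clusters, 1 rose in C3, and 1 rose and 4 fell in C6, again not above the share of all genes; NIPBL rose (0.38, adjusted p = 0.00118) and SMC3 and CTCF fell (−0.28 and −0.22; adjusted p = 0.0015 and 0.00703) in C6, and PDS5B gave 0.27 and 0.09 (adjusted p = 0.0539 and 0.481). The noncoding RNAs of the clusters are not analysed here.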

How the data were processed

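RNA from 6 SW620 libraries was sequenced as paired ends from a stranded poly(A) kit, per the labels' protocols. The deposited table gives whole-number counts for 19672 genes, not scaled between libraries. Per the submitters' processing notes, the authors worked on build hg38 with HISAT2 2.1.0, Trimmomatic 0.38, DESeq2 and StringTie 2.1.3b. The sources used here do not say how reads of overlapping genes, similar paralogs or the opposite strand were assigned, and counts were taken as tallies.

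Groups follow the titles. Genes were tested by quasi-likelihood in edgeR 4.0.16 and R 4.3.3 (robust, TMM scaling, filterByExpr), fitted to all 6 libraries as 3 groups with 3 residual degrees of freedom. The Benjamini-Hochberg adjustment covered all 13299 tested genes, an adjusted p under 0.05 counted as a call, and "called", "rose" and "fell" refer to it. CPM uses TMM-scaled library sizes, and ± is an SD of 2 libraries for levels and an SE of the fit for log2 fold changes. Floors and exact intervals cover counting error only. Lengths are those of GENCODE v29 transcripts paired with RefSeq accessions. Promoter windows and gene positions come from RefSeq (GRCh38.p14). Replicate numbers did not pair the libraries (correlations of same-numbered deviations −0.05, 0.06 and 0.03), and replicates differed by more than sampling noise (chi-square per degree of freedom 6.08 to 8.3).

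Values of some single genes are not reported here, although counts include them. The HOX genes and the lists were chosen with earlier results of these data known. Members called in any comparison, or most abundant in a cluster, are given in every library, with up to 4 members of each list that had the smallest p in the mean comparison and the nearest tested neighbours. The alternatives were RLE and upper-quartile scaling, no filter or one of 1 CPM in 2 libraries, a fit without robust estimation, a replicate block, the knockdown libraries as 1 group, DESeq2 1.42.0, limma-voom (limma 3.58.1), removal of neighbouring shifts and each library left out.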

Additional observations from a re-analysis of the deposited data

Results flagged for a closer look

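Levels differed between C3 and C6 for 19 HOX genes, 55.9% of the 34 tested, where 49.2% of all genes tested did. Each of these HOX genes passed an adjusted p of 0.05 in the direct comparison of C6 with C3 by edgeR's quasi-likelihood test. Of those reported here, the log2 differences of C6 from C3 in HOXD were −3.82 for HOXD13, −2.59 for HOXD10, −2.28 for HOXD11, −0.73 for HOXD9 and −0.56 for HOXD8. In HOXB they were −1.38 for HOXB8, −0.88 for HOXB9, −0.72 for HOXB13, −0.52 for HOXB6, −0.46 for HOXB5 and 1.01 for HOXB2. In HOXA they were −0.77 for HOXA5, −0.48 for HOXA7 and −0.39 for HOXA3, and in HOXC −0.58 for HOXC5, −0.42 for HOXC6, −0.35 for HOXC8 and −0.32 for HOXC13. In C6 against C3, DESeq2 called 15 HOX genes and did not call HOXB13, HOXC8 or HOXC13. HOXD9 and HOXD8 lost the call after removal of the neighbouring shift, with values up to −0.15 and 0.04. HOXA3, HOXA5, HOXA7, HOXB5, HOXB13, HOXC8 and HOXC13 lost it in some fits without a C3 or C6 library. HOXB6 is the HOX gene that was called with opposite signs against scramble in C3 and C6.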

How the results depend on the processing

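Over the alternatives, 28 of the 59 called HOX values were lost under none of them, apart from the fit of the knockdown libraries as 1 group. With those libraries as 1 group, 0 HOX genes were called for the mean comparison by edgeR (4 at an unadjusted p under 0.05). Over all genes that fit called 80, against 4382 with 3 groups, so the 0 is not particular to HOX genes. With 3 groups DESeq2 called 8 HOX genes and limma-voom 11. Leaving out 1 library in turn gave 6 to 14 HOX genes for C3, 9 to 14 for C6, 7 to 11 for the mean and 13 to 19 for C6 against C3. The fit with a replicate block gave 14, 13, 12 and 19, and changed no other call than that of HOXC10 in the mean comparison (adjusted p = 0.0623). With upper-quartile scaling the summed CPM was 344 for HOXB in scramble and 26.3 for HOXD in C6, and 1642 of 4415 genes called in the mean comparison were higher, against 2212 of 4382 with TMM.

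Among values called before or after the change, a turn of sign occurred where the neighbouring shift was removed, with 51 neighbours or with 50 that are not HOX genes, and under no other alternative run. With no call on either side, 27 of 136 values turned sign under other alternatives, such as HOXB5 in C6 (−0.01, and 0.07 without scramble replicate 1). In C6 against scramble the called ones were HOXA9 (−0.24 and −0.32), HOXA10 (−0.05 and −0.14) and HOXA11 (−0.31 and −0.42). In C6 against C3 they were HOXA9 (−0.33 and −0.47), HOXA10 (−0.30 with 50) and HOXD8 (0.04 and 0.02), and HOXD9 lost its call there (−0.15). Depth limits the lowest genes: HOXD13 rests on 8 counts and HOXA13 on 14 over both C6 libraries.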
